A study of Homo sapiens with 4 samples.

Results

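Peaks of H3K4me3 that were called in both libraries of C48-treated HCC1428 cells and in neither library of vehicle-treated cells are described here. Of the 45692 merged peaks called in at least 1 of the 4 libraries, out of 110018 in the deposited table, 5533 met this rule. They were selected on the peak calls, which are themselves measured values, so the difference between C48 and DMSO at these peaks is given as a description and is supported by no test. HCC1428 is an established luminal breast cancer line, used here with the wild-type genotype. Cells received DMSO, the vehicle, or 2.5 µM C48, an inhibitor of the KDM5 enzymes, and were collected on day 5, with 2 libraries per group. The labels call these biological replicates, but the sources do not say if each had its own culture, and the spread between them may therefore be technical. In such bulk data, a mark in fewer cells cannot be told apart from less of it per cell. H3K4me3 was profiled by CUT&Tag, in which an antibody against the mark directs the transposase Tn5 to cut and tag the DNA beside it.

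H3K4me3, the trimethylated form of lysine 4 of histone H3, marks the starts of active genes and is densest just downstream of the transcription start site (TSS). The KDM5 family of demethylases removes this mark, and the COMPASS family of methyltransferases writes it, with a preference for unmethylated CpG-rich DNA. Outside promoters the mark is usually weak, and distal regulatory elements carry mostly the monomethylated form.

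A value is the number of sequenced tags in a peak per 10 M aligned tags, scaled further by TMM factors, and a log2 difference is C48 minus DMSO on the log2(value + 1) scale, which understates the difference of weak peaks. Depth ran from 58.4 M aligned tags (C48 replicate 1) to 88.4 M (DMSO replicate 1), and more peaks were called with C48 (37462 and 37867) than with DMSO (30162 and 29745). TMM treats most peaks as unchanged, whereas the paper, from added fly nuclei, reports a global increase of H3K4me3 with C48. Without it, on the values as deposited, log2 differences of strong peaks are higher by about 0.401, and when scaled on ribosomal protein promoters by about 0.856. The pseudocount makes the shift smaller at weak peaks, and the median over all members goes from 1.11 to 1.41 and 1.76. Luminal identity was checked at promoters. Of 8 luminal markers, 5 (among them ESR1, KRT8 and XBP1) had a peak called in all 4 libraries within 1 kb of the TSS and no called peak was assigned to GATA3 or KRT18 there, while none of 5 basal or 4 blood markers and 1 of 5 stromal and endothelial markers (COL1A2) had one.

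The sequences of 3 members are shown first, from hg38 on the plus strand, because they span the kinds of DNA found. NBPF13P names the intron member with the largest log2 difference. CYP4B1 names an intron member with matches to transcription factor motifs, and IRF5 a CpG-rich member beside a promoter that was already marked. None of the stretches overlaps an annotated exon. In the sequences named NBPF13P and IRF5, capitals mark CpG dinucleotides, and in that named CYP4B1 they mark motif matches. The stretches lie at chr1:147113192-147113441 (NBPF13P), chr1:46800842-46801091 (CYP4B1) and chr7:128938806-128939055 (IRF5).
NBPF13P: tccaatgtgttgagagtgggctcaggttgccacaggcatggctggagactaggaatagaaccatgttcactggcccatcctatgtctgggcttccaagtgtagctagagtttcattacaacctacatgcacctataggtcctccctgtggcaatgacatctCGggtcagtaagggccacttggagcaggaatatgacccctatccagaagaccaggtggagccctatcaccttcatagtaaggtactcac
CYP4B1: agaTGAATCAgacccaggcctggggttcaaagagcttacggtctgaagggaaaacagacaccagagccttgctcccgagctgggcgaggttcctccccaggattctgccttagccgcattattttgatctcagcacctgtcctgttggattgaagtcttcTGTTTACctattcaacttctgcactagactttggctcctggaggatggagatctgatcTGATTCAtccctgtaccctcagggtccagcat
IRF5: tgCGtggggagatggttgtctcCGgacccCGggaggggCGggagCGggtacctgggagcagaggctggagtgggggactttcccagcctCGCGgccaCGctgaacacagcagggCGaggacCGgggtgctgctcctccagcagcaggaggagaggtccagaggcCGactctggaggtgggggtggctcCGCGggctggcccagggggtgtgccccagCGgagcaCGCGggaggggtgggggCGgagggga
The NBPF13P stretch holds 1 CpG in 250 bases and the IRF5 stretch 17. The capitals in CYP4B1 are TGAATCA and TGATTCA, matches to the AP-1 site, and TGTTTAC, the forkhead site.

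Members were short and mostly weak. Their median length was 385 bp, and over all 5533 the median value was 2.49 and 2.64 with DMSO and 6.99 and 6.36 with C48. The median log2 difference was 1.11. Both C48 libraries were above both DMSO libraries at 4964 members (89.7%), as they were at 46.2% of all called peaks, and both were below at 307 members (5.55%), as they were at 35.9% of all called peaks. The rule used the same libraries, so nothing is read from these counts. Absence of a call was not absence of the mark: only 94 members (1.7%) had a DMSO library without a tag, 1023 (18.5%) had a DMSO mean of at least 10, and 499 (9.02%) one of at least 100.

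The members fell into 2 kinds according to what lay beside them (the boxplots of values in each library show both). At 1450 members (26.2%), a peak called in a DMSO library lay within 1 kb of the member's edge. These had medians of 36.2 and 36.1 with DMSO and of 66.1 and 67.1 with C48, with a median log2 difference of 0.70, and 1032 of them (71.2%) had a DMSO mean of at least 5. The other 4083 members stood away from any DMSO-called peak. These were near the floor in DMSO, with medians of 2.10 and 2.12, and reached 5.95 and 5.52 in C48, a median log2 difference of 1.17, and 226 of them (5.54%) had a DMSO mean of at least 5. Members beside a DMSO-called peak were therefore the stronger kind in every library, and those away from one the more numerous. The count beside a DMSO-called peak was 1142 with a gap of at most 0.5 kb and 1845 with at most 5 kb. The division uses only the position of calls and not the size of the difference. Peaks called in 1 C48 library and no DMSO library lay within 1 kb of a DMSO-called peak about as often (1809 of 7052, 25.7%), and of the 1193 peaks of the opposite kind, called in both DMSO libraries and neither C48 library, 406 (34.0%) lay within 1 kb of a C48-called peak.

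**Figure D1:**
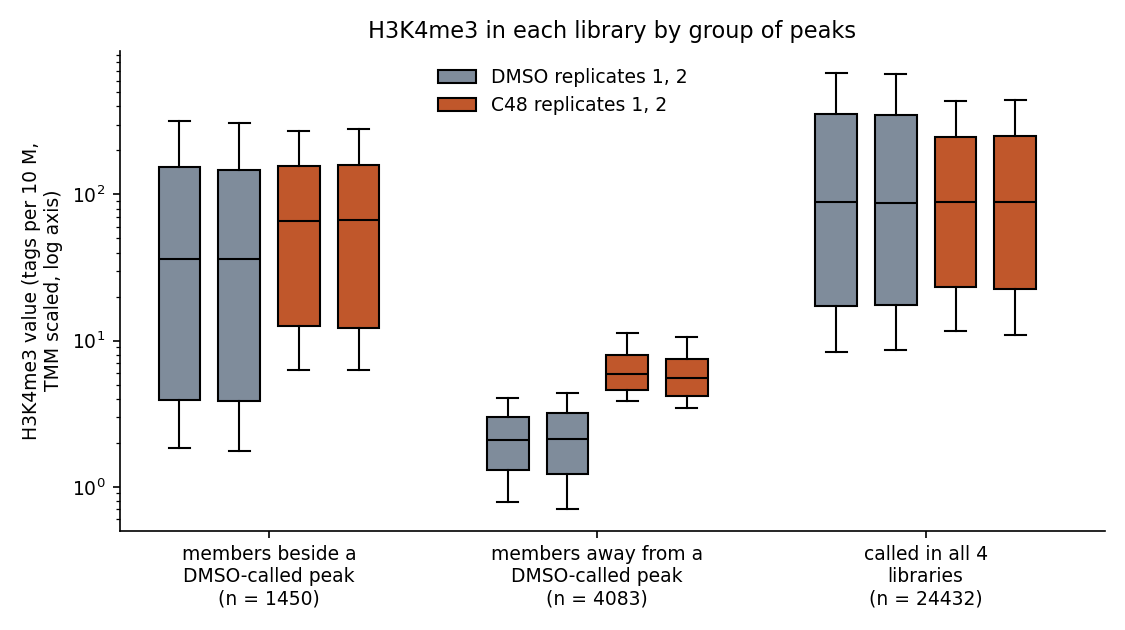
H3K4me3 values (y axis, tags per 10 M after TMM scaling, on a log axis) in the 2 DMSO and 2 C48 libraries for members beside a DMSO-called peak, members away from one and peaks called in all 4 libraries (x axis). Boxes span the quartiles with the median as a line and whiskers reach the 10th and 90th percentiles of peaks; members away from a DMSO-called peak have medians of 2.10 and 2.12 in DMSO and 5.95 and 5.52 in C48, below the medians of the other groups in every library.

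Most members lay far from gene starts. By the deposited annotation, 2691 (48.6%) were intergenic, 2148 (38.8%) intronic and 354 (6.4%) at a promoter-TSS, against 37.4%, 32.8% and 17.9% of all called peaks. Of the remainder, 167 were exonic, 46 in non-coding transcripts, 37 at a transcription termination site, 35 in a 5′ UTR and 18 in a 3′ UTR, and 37 had no annotation. The median distance to the nearest TSS was 37.4 kb. Members over 50 kb from a TSS numbered 2417 (43.7%), whereas this share was 27.8% among all called peaks, 19.0% among peaks called in all 4 libraries and 12.3% among peaks called in DMSO only. Peaks close to the rule were alike, at 46.2% of those called in 1 C48 library only and 39.2% of those called in both C48 libraries and 1 DMSO library, and their intergenic shares were 51.5% and 50.3%. The 2 kinds of members also differed in distance. Of members beside a DMSO-called peak, 63.8% were within 2 kb of a TSS and 15.5% over 50 kb from one, and of those away from one, 7.69% and 53.7%. No test was made of such shares, since peaks of the same 4 libraries are not replicates.

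**Figure D2:**
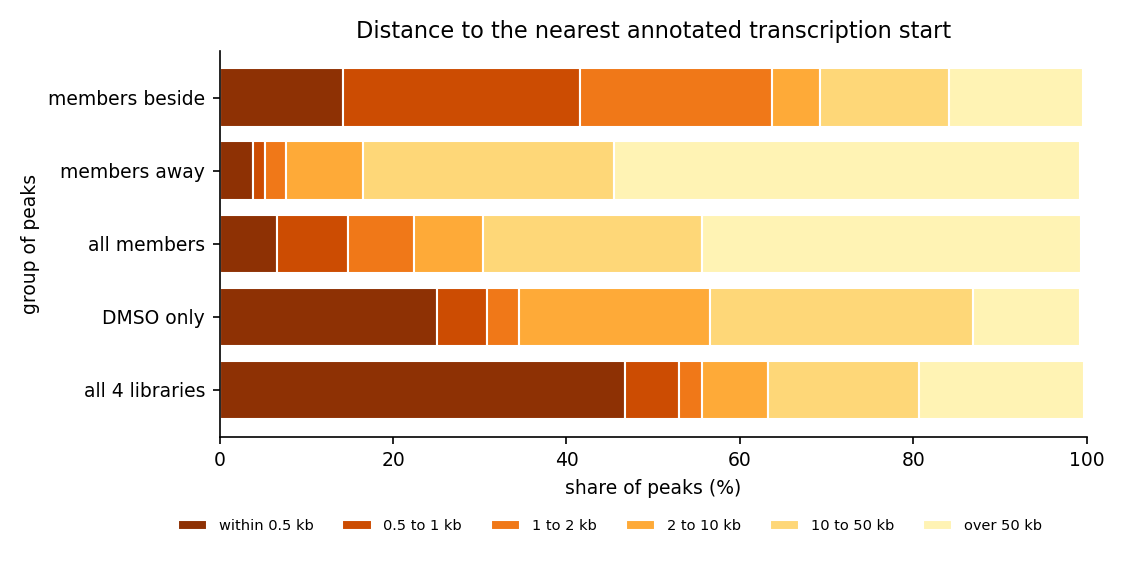
Share of peaks (x axis, %) by distance to the nearest annotated TSS, for members beside a DMSO-called peak, members away from one, all members, peaks called in DMSO only and peaks called in all 4 libraries (y axis). Colours are distance classes and a bar ends short of 100% where peaks have no annotated distance; 53.7% of members away from a DMSO-called peak are over 50 kb from a TSS, against 19.0% of peaks called in all 4 libraries.

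Members close to genes sat downstream of the start. Between 0.5 and 2 kb from a TSS there were 759 members downstream and 115 upstream, while among all called peaks the numbers were 3647 and 1012. Within 0.5 kb of a TSS there were 365 members. At 838 members, the member and the DMSO-called peak beside it were both within 3 kb of the start of the same gene, and at 694 of these (82.8%) the member was the one farther downstream. Downstream members at 0.5 to 2 kb had a median DMSO mean of 64.2 and a median C48 mean of 102, and upstream members 37.4 and 55.2.

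The log2 difference of members also depended on their distance from the start. The median was 0.57 for the 228 members from 0 to 0.5 kb downstream, 0.16 for the 385 members from 0.5 to 1 kb, 0.86 for the 264 members from 1 to 1.5 kb and 1.33 for the 111 members from 1.5 to 2 kb. Among members the bin from 0.5 to 1 kb was thus the lowest. Peaks called in all 4 libraries, on which the rule did not act, were higher in each bin than in the one before it, at −0.51 for 8638 peaks from 0 to 0.5 kb, −0.35 for 1201 from 0.5 to 1 kb, 0.01 for 333 from 1 to 1.5 kb and 0.27 for 139 from 1.5 to 2 kb. The rise was not steady beyond 2 kb, where the median was 0.15 for 140 peaks from 2000 to 3000 bases downstream. It was 0.12 at 3000 to 10000 bases from a TSS, 0.18 at 10000 to 50000 bases and 0.34 over 50 kb. Upstream it was −0.45 from −500 to 0 bases, −0.17 from −1000 to −500, 0.0 from −2000 to −1000 and 0.23 from −3000 to −2000. Scaled by ribosomal protein promoters, the downstream median became 0.34 from 0 to 0.5 kb and 1.11 from 1.5 to 2 kb. The sign near the start therefore depends on the scaling.

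In limma's test with Benjamini-Hochberg adjustment over 33772 tested peaks, 32.3% were called higher in C48 and 39.2% lower. Of the peaks called in all 4 libraries and lying 0 to 0.5 kb downstream, 1080 were called higher and 6363 lower, of those 1.5 to 2 kb downstream 75 and 33, and of those over 50 kb from a TSS 1958 and 489. Only 2411 members had a mean of at least 5 and so entered the test. Of these, 1783 were called higher and 261 lower. Since the rule used the same contrast and the filter kept weak members only where C48 was high, nothing is read from these counts. Of the 261 lower members, 259 lay beside a DMSO-called peak.

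**Figure D3:**
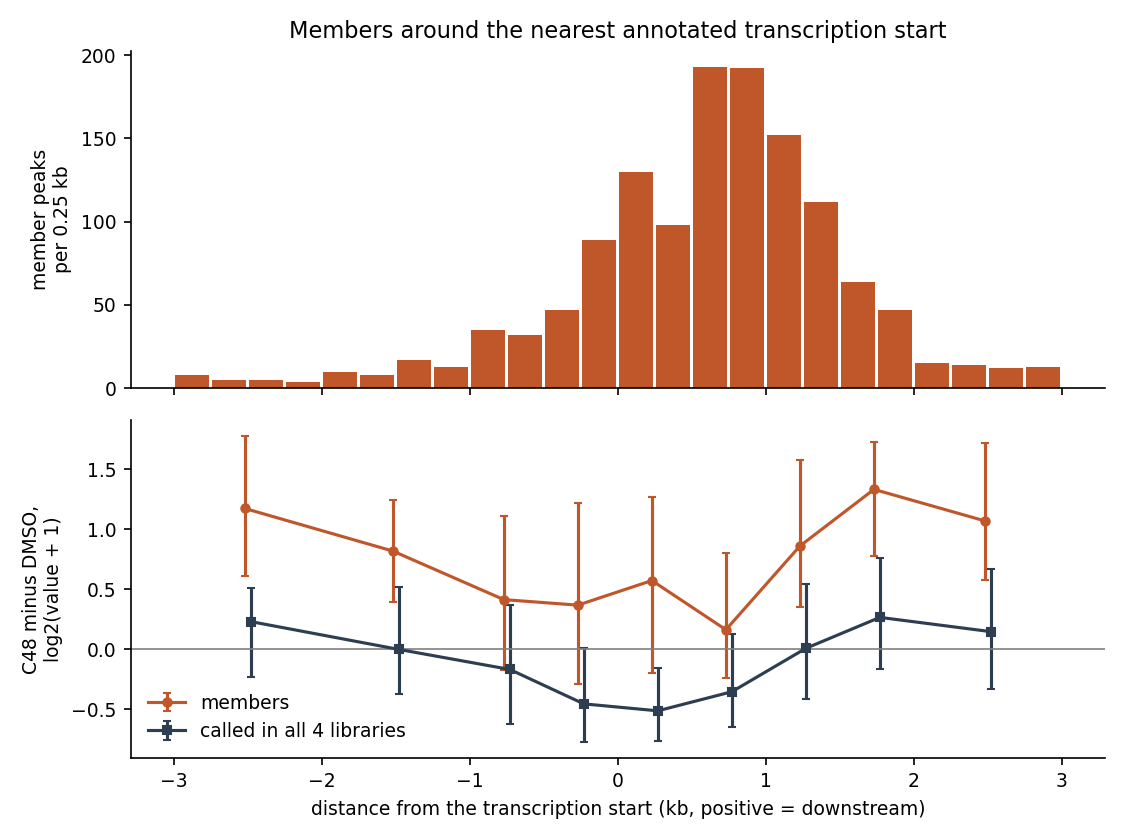
Upper panel, number of member peaks (y axis) by signed distance from the nearest annotated TSS (x axis, kb, positive downstream). Lower panel, median C48 minus DMSO difference on the log2(value + 1) scale (y axis) with bars spanning the quartiles of peaks, for members and for peaks called in all 4 libraries; the 759 members 0.5 to 2 kb downstream outnumber the 115 upstream, and the median of peaks called in all 4 libraries goes from −0.51 at the start to 0.27 at 1.5 to 2 kb (0.34 and 1.11 when scaled on ribosomal protein promoters).

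A member and the DMSO-called peak beside it often differed in their response. The median gap between them was 258 bases, 92.2% were assigned to the same gene, and the neighbour was the stronger peak in DMSO at 1358 of 1450 pairs (93.7%) and in C48 at 1061 (73.2%). The neighbours had a median DMSO mean of 173 and a median C48 mean of 125.0, a median log2 difference of −0.46. At 1385 pairs (95.5%) the log2 difference of the member was above that of its neighbour, with a median gap of 0.90 on the log2 scale. Within a pair this gap hardly depends on the scaling and was 0.88 to 0.91 under all 5 scalings, with the member above its neighbour at 94.6% to 95.7% of pairs. The direction of each side does depend on it: 974 neighbours were below 0 with TMM, 781 on the deposited values and 340 on ribosomal protein promoters. With TMM, member and neighbour were both above 0 at 475 pairs (32.8%), the member alone at 622 (42.9%), and both below 0 at 352 (24.3%). Of 1345 distinct neighbours tested by limma, 268 were called higher and 829 lower, against 32.3% and 39.2% of all tested peaks. Peaks called in all 4 libraries from 0 to 0.5 kb downstream of a TSS had 1080 higher and 6363 lower of 8637 tested, with a median of −0.51. Lower values with TMM are therefore not particular to the neighbours. The rule asked that the member and not its neighbour lack a DMSO call, so the gap within pairs is a description.

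Named pairs ranged widely (the plot of named members and their neighbours shows them). At PARP1, which encodes the enzyme that builds poly(ADP-ribose) at DNA breaks, the member was an intron peak 1218 bases downstream of the TSS with 99.0 and 80.9 in DMSO and 181 and 191 in C48. Its neighbour at the start went the other way, from 301 and 247 to 131 and 147. At IRF5, a transcription factor of interferon responses, the member had 97.2 and 86.6 in DMSO and 157 and 160 in C48, and the promoter peak beside it 434 and 419 and then 366 and 353. At DDX58, which encodes the RNA sensor RIG-I, the member had 39.3 and 35.6 in DMSO and 63.2 and 66.6 in C48, and its neighbour 179 and 196 and then 138 and 143. In these 3 pairs the groups did not overlap on either side with TMM, and on ribosomal protein promoters the IRF5 and DDX58 neighbours, though not that of PARP1, turn to higher in C48. Such separation was common: with TMM, both C48 libraries were above both DMSO libraries at 46.2% of all called peaks and below at 35.9%. KDM5B, itself a target of the inhibitor, had an intron member with 440 and 432 in DMSO and 396 and 392 in C48, a log2 difference of −0.14 that became 0.26 on the deposited values. At KMT2B, which encodes an H3K4 methyltransferase, the member had 529 and 504 in DMSO and 337 and 385 in C48, a log2 difference of −0.52 that became 0.34 on ribosomal protein promoters. The KDM5B neighbour had 1300 and 1180 and then 743 and 749, and the KMT2B neighbour 790 and 794 and then 318 and 346, both further below DMSO than the member beside them.

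**Figure D4:**
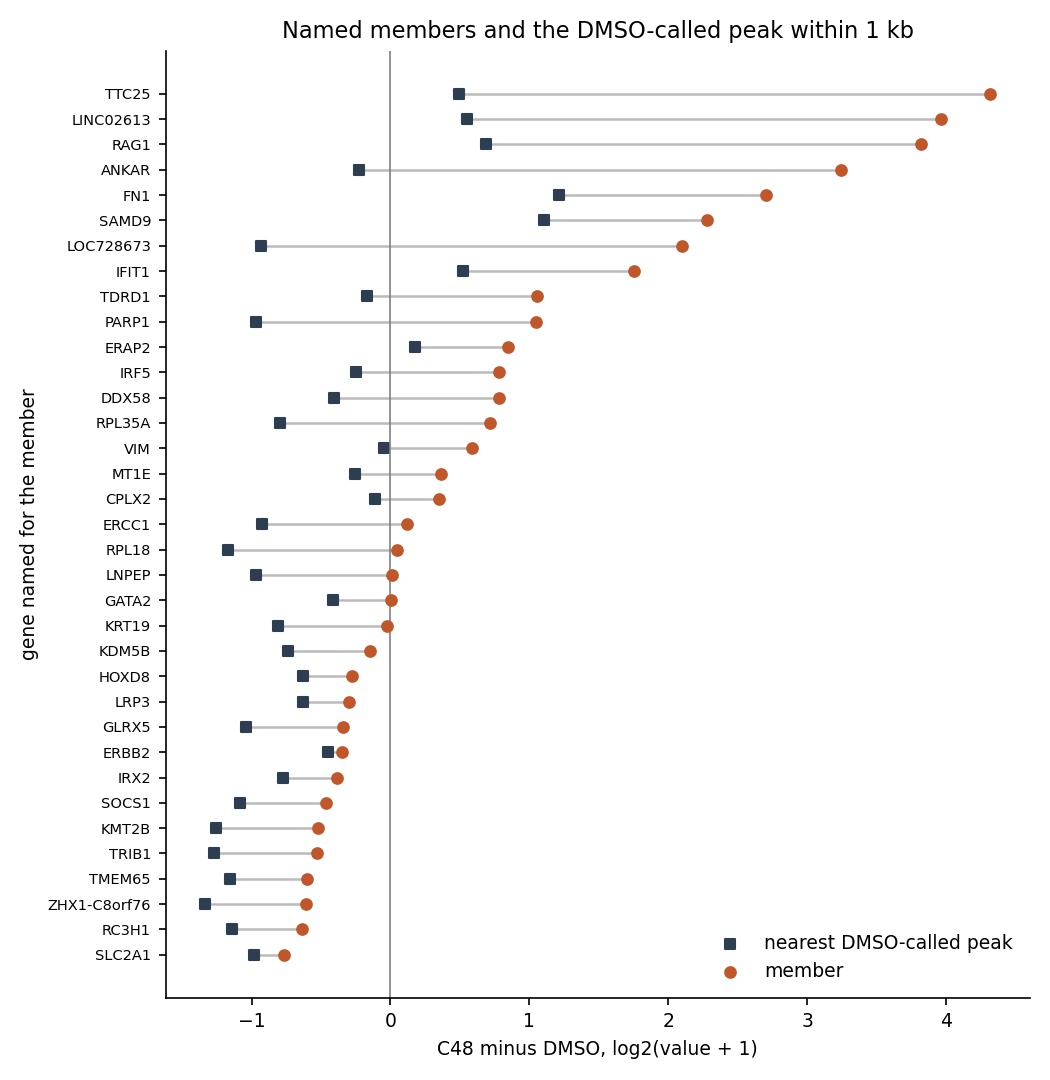
C48 minus DMSO difference on the log2(value + 1) scale (x axis, TMM scaling) of each named member that has a DMSO-called peak within 1 kb (circles) and of that peak (squares), by the gene named for the member (y axis). Every circle lies to the right of its square, from TTC25 (4.32 against 0.50) to SLC2A1 (−0.76 against −0.98), and on ribosomal protein promoters all circles shown lie above 0.

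In each of the promoter, intron and intergenic classes, the 2 members with the highest C48 mean had more of the mark in DMSO than in C48 with TMM, each within 0.5 kb of a DMSO-called peak. TRIB1, which encodes a pseudokinase, had the promoter member with the highest C48 mean, and its values were 2760 and 2610 in DMSO and 1860 and 1850 in C48. The other promoter member was at GLRX5, a mitochondrial glutaredoxin (895 and 798, then 673 and 662), and the intron members were at ZHX1-C8orf76 (2200 and 2060, then 1350 and 1440) and TMEM65 (1920 and 1820, then 1250 and 1220). Among intergenic members they were near RC3H1 (626 and 619, then 384 and 418) and LRP3 (394 and 383, then 308 and 325). All 6 were lower in C48 with TMM and above 0 on ribosomal protein promoters, where the 2 smallest values were 0.22 (RC3H1) and 0.25 (ZHX1-C8orf76). At the other end of the rule, the member with the lowest C48 mean had 2.67 and 2.52 in C48 and no tag in either DMSO library. It lay 59252 bases from the TSS of its nearest gene, PIWIL1. Just outside the rule, a peak called in 1 DMSO library, with LINC02189 as nearest gene, had 3.8 and 0.353 in DMSO and 3.86 and 3.36 in C48.

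The largest differences were at members that were almost empty in DMSO. The intergenic member near TTC25, a cilium gene, lay in an AluJb repeat at chr17:41929058-41929443, at −1367 bases from the TSS, and held 1.05 and 1.41 in DMSO and 45.1 and 41.9 in C48 (log2 difference 4.32). An intron member of the pseudogene NBPF13P at chr1:147113192-147113578 had 1.18 and 3.87 and then 61.1 and 54.1 (4.17). NBPF genes have near-identical copies, so its reads are less certainly placed. An AluSz member in the first intron of LINC02613 had 0.521 and 0.353 and then 20.2 and 22.7 (3.97). The CYP4B1 member, in the first intron of a cytochrome P450 gene at chr1:46800746-46801186, had 0.916 and 1.41 and then 33.6 and 31.0 (3.95). The first intron of ANKRD6 held a member with 0.661 and 0.877 and then 26.2 and 22.2 (3.83). Between genes, the members nearest RAG1, a recombinase of lymphocytes (1.18 and 0.877, then 26.2 and 28.9), ARRDC3, an arrestin-like adaptor (1.58 and 1.41, then 31.2 and 32.9) and ZNF385B (1.18 and 0.877, then 22 and 29.7) followed. The ARRDC3 member was at −700586 bases from the TSS, so the nearest gene is a label of position only. At each of these the C48 libraries stood far above both DMSO libraries, which follows from the choice of the largest differences.

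Among promoter members the largest differences were smaller than those above. The ANKAR member, at chr2:189675488-189675902 and −290 bases from the TSS of a gene of ankyrin and armadillo repeats, had 3.15 and 2.12 in DMSO and 29.3 and 37.3 in C48 (3.24). It lay 413 bases from a DMSO-called peak that had 156 and 146 in DMSO and 123 and 135 in C48. Members at TRIM55, a muscle ubiquitin ligase gene (3.55 and 5.12, then 26.3 and 22.6), at LOC728673 (4.07 and 5.64, then 21.9 and 25.9) and at SEMA4A, which encodes a semaphorin (5.38 and 5.29, then 26.2 and 25.1) came next. The groups did not overlap at any of the 4, which follows from the choice of the largest differences. Both C48 libraries were above both DMSO libraries at 89.7% of members and 46.2% of all called peaks.

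Most gene starts with a member also had a DMSO-called peak nearby. A member lay within 1 kb of the TSS at 806 genes, of which 540 also had a DMSO-called peak within 1 kb of the TSS. The remaining 266 genes included 161 whose member had no DMSO-called peak within 1 kb of its edge. Of the 13891 genes with any called peak within 1 kb of the TSS, 13342 had a DMSO-called one. Members lack a DMSO call by the rule, so nothing is read from the lower share among genes with a member. The list of 161, ordered by C48 mean, opened with regions that were already strong in DMSO, as at KIF26B (627.8 and 592.3, then 564.8 and 592.1) and ZNF581 (437.9 and 427.9, then 566.4 and 588.3). These 2 members lay just outside the window, 1388 (KIF26B) and 1054 bases (ZNF581) from a DMSO-called peak. Others started low, and the following were chosen after their values were seen. At SP100, which encodes a component of nuclear bodies induced by interferon, the values were 34.6 and 35.4 in DMSO and 96.7 and 110.3 in C48. ALKBH2, a DNA repair dioxygenase, had 12.8 and 14.8 and then 64.4 and 65.0. LGALS3BP, a secreted interferon-inducible glycoprotein, had 3.01 and 1.41 and then 25.9 and 28.8 at an AluSx repeat in its first kb. CRYAB, a small heat shock protein, had 1.44 and 0.706 and then 17.5 and 16.3. The values of VGLL1, a TEAD cofactor, were 2.36 and 3 and then 19.6 and 16.6. S100A8, a subunit of calprotectin, had 5.38 and 4.76 and then 16.5 and 15.2.

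Interferon genes were present among the members but were a small part of them. Of the 62 genes of the study's interferon-stimulated gene (ISG) signature, 55 had a called peak and 11 were nearest gene of a member, and 14 of their 106 called peaks (13.2%) were members, against 12.1% over all genes. Of the further ISGs, 10 of 43 called peaks (23.3%) were members. The median log2 difference was 0.95 over the 14 signature members and 1.98 over these 10, against 1.10 over the members of all genes. IFIT1, which binds foreign RNA, had a member in the annotated 5′ UTR, 672 bases downstream of the TSS, with 25.7 and 25.2 in DMSO and 88.3 and 87.7 in C48. SAMD9, an antiviral restriction factor, had an intron member in an AluJr4 repeat with 4.59 and 5.47 and then 26.5 and 30.1. IFI44L had an intron member in an AluSz repeat with 0.916 and 0.353 and then 6.09 and 8.04. At these 3 genes the log2 difference was above 0 under every scaling tried. The rule favours this sign, and over all 5533 members only 366 were below 0 with TMM and 457 with DESeq2 factors. The sign is therefore not read as a result. SOCS1, the feedback inhibitor of JAK-STAT signalling, had a promoter member that was strong throughout, with 377 and 344 and then 256 and 267. No member was assigned to ISG15, OAS2, IFI44, CXCL10, B2M, HLA-B, KDM5A or KDM5C, or to CGAS or STING1 under their current or older symbols.

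In the study's antigen presentation signature, 3 of 24 called peaks (12.5%) were members. LNPEP, an aminopeptidase of the cross-presentation pathway, had 276 and 268 in DMSO and 279 and 270 in C48, which overlap, and ERAP2, which trims peptides for MHC class I, had 17.7 and 10.2 and then 26.9 and 23.3 in an AluSx repeat. Members made up 18.2% of the called peaks of nucleic acid sensing genes, with TLR3 (2.62 and 2.64, then 9.07 and 9) and TLR7 (0.521 and 2.83, then 5.95 and 6.96) as examples. The share was 21.7% for DNA damage response genes (13 members), where ERCC1 is an example (87.6 and 84.3, then 90.6 and 96.7). It was 16.7% for R-loop regulators, whose 10 members were all assigned to 1 gene, ERCC4. The DNA damage list holds ERCC4 too, so these 10 are among its 13 members. The strongest of them in C48 lay at −289947 bases from the ERCC4 TSS. For solute carriers and metallothioneins the share was 17.2%, for example MT1E (61.2 and 52.5, then 71.1 and 75.5) and SLC2A1 (591 and 621, then 340 and 374, below 0 on all scalings but ribosomal protein promoters). Lists of genes typical of other cell types also held members. They made up 19.0% of the called peaks of basal and myoepithelial markers, 9.68% of stromal and endothelial markers, 19.5% of germline and meiosis genes, 12% of neuronal genes, 14.2% of developmental transcription factors, and 4 of 9 at blood and immune markers (44.4%), whose median C48 mean was 5.24. Examples are CD3E (1.97 and 3, then 8.47 and 8.40) and TP63, a basal marker (1.70 and 1.94, then 5.95 and 9). The share was 10.6% in the H3K4 methylation machinery, 5.08% in luminal markers, 5.21% in ribosomal protein genes and 2.38% in HOX genes. These lists hold few members and no share was tested.

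Several of the strongest members of these lists lay within 1 kb of a DMSO-called peak. Among luminal genes, the keratin KRT19 had a promoter member with 188 and 218 in DMSO and 197 and 201 in C48, which overlap, and the receptor ERBB2 an intron member with 178 and 170 and then 134 and 139. The ribosomal protein genes RPL18 (127 and 141, then 132 and 145) and RPL35A (59.8 and 66.1, then 102 and 106) had intron members. Only that of RPL35A, in an AluSx1 repeat, had separate groups. Among developmental transcription factors, promoter members lay at IRX2 (468 and 456, then 349 and 358), GATA2 (353 and 327, then 327 and 353) and HOXD8 (128 and 115, then 98.4 and 101). Those of GATA2 overlap, and those of IRX2 and HOXD8 were lower in C48 with TMM. On the deposited values the log2 difference was 0.015 at IRX2, close to no change, and 0.117 at HOXD8. The neuronal gene CPLX2, which encodes a complexin, had an intron member with 20.1 and 17.5 in DMSO and 25.7 and 22.6 in C48. VIM, the intermediate filament of mesenchymal cells, had an intron member with 111 and 103 and then 168 and 155. TDRD1, a germline gene of the piRNA pathway, had one in an AluSq2 repeat with 39.5 and 31.9 and then 68.8 and 81.3. Members far from a start were weaker throughout, as in the fibronectin gene FN1 (1.58 and 0.706, then 11.6 and 13.8) and in the receptor gene CSF1R (3.55 and 4.06, then 4.76 and 4.21). Intergenic ones lay at −69891 bases from the TSS of the endothelial cadherin CDH5 (3.55 and 8.11, then 14.3 and 11.9) and at −73131 bases from that of PIWIL1, a germline Argonaute (0.916 and 1.41, then 8.32 and 7.80). The member assigned to ERCC4, a repair endonuclease, lay at −289947 bases (2.10 and 2.12, then 16.7 and 10.3), and these nearest genes are labels of position only. Both C48 libraries were above both DMSO libraries at all 5 of these, as at 89.7% of members and 46.2% of all called peaks. Nothing is read from this. At CSF1R the margin was only 4.21 against 4.06, and the CSF1R and PIWIL1 members were too weak to enter limma's test.

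Some nearest genes had many members. The 5489 members with a nearest gene were assigned to 3626 genes, 2750 of which had 1 member and 25 of which had 10 or more. The non-coding gene LOC102723427 on chromosome 7 had 21 of its 60 called peaks among the members, all intergenic, with C48 means of 3.41 to 9.93 and DMSO means of 0.634 to 3.45. CALN1, a neuronal calcium-binding protein gene also on chromosome 7, had 17 of 36, with C48 means of 3.32 to 24.1. LOC100506858 on chromosome 5 also had 17, DOK5, an adaptor of receptor tyrosine kinases, 15, and DPP10, a subunit of neuronal potassium channels, 14. LINC01163, LOC105378098 and RBFOX1, a neuronal splicing regulator, were tied at 13. At each of these 8 genes at most 2 members lay beside a DMSO-called peak. Per chromosome, members made up from 7.58% of the called peaks on chromosome 19 to 17.4% on chromosome 18, with 14.6% on X.

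Repeats held a larger share of the members than of all called peaks. The annotation placed 2099 members (37.9%) in a repeat, against 27.2% of all called peaks, 20.2% of those called in all 4 libraries and 16.1% of those called in DMSO only. The share was like that of members in peaks called in 1 C48 library only (40.2%) and in those called in both C48 libraries and 1 DMSO library (37.7%). No repeat was named at any of the promoter members given above, and promoter peaks were fewer among members (6.4%, against 17.9% of all called peaks). The larger repeat share may therefore partly restate the smaller promoter share, which was not tested. SINEs, short retroelements that include Alu, held 819 members (14.8%, against 8.44% of all called peaks), LTR elements, the remains of retroviruses, 545 (9.85%, 6.84%), LINEs 532 (9.62%, 9.2%), DNA transposons 107 (1.93%, 1.12%) and satellites 35 (0.633%, 0.707%). SINEs held 16% of the peaks called in 1 C48 library only. The median value at SINE members was 2.23 and 2.12 in DMSO and 5.65 and 5.17 in C48, and at LTR members 2.10 and 2.29 and then 6.09 and 5.52, close to the medians of all members away from a DMSO-called peak.

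Within these classes the subfamilies differed. AluY, a young Alu subfamily, had 302 members of 1448 called peaks (20.9%), and AluSz (27.0%), AluSx (25.1%) and AluJb (24.7%) had larger shares of fewer peaks, as did the old elements L2b (22.9%) and L2a (22%). The youngest L1 subfamilies had few: L1PA2 had 11 members of 637 called peaks (1.73%), L1PA3 34 of 703 (4.84%) and L1HS 10 of 151 (6.62%). Of the L1PA2 peaks 528, and of the L1PA3 peaks 526, were called in all 4 libraries, so most were already marked in DMSO. LTR12C, a retroviral LTR, likewise had 16 of 293 (5.46%), with 184 called in all 4. Reads from near-identical copies are less certainly placed, so the counts of young subfamilies are less certain.

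The DNA of members was poorer in CpG than that of all called peaks. Over the central 250 bases, read from hg38 for 5517 members, the median GC content was 50.8% and the median number of CpGs 6, against 58.0% and 10 over all called peaks and 64.0% and 17 over those called in all 4 libraries. Peaks called in DMSO only had 59.6% and 8. Members beside a DMSO-called peak lay between, at 54.4% and 7, and members away from one were at 50% and 5. Windows with a GC content of at least 50% and a CpG observed to expected ratio of at least 0.6 made up 15.8% of members, 42.5% of all called peaks and 62.1% of those called in all 4 libraries. Among peaks over 50 kb from a TSS the difference from all called peaks was small. Members there had 49.6% GC and 5 CpGs, and all called peaks 51.6% and 6. Distal peaks called in all 4 libraries had 55.6% and 9. In the stretches printed above, the IRF5 member had 73.2% GC and 17 CpGs, and the NBPF13P member 50.8% GC, the median of members, and 1 CpG.

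**Figure D5:**
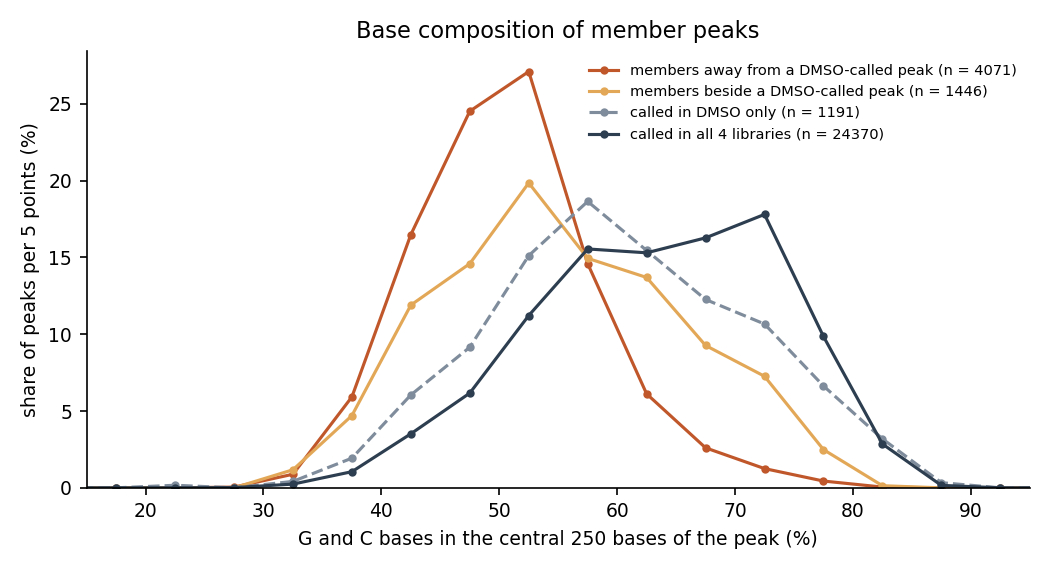
Share of peaks (y axis, % per 5 points) by the GC content of the central 250 bases (x axis, %), for members away from a DMSO-called peak, members beside one, peaks called in DMSO only and peaks called in all 4 libraries. Medians are 50%, 54.4%, 59.6% and 64.0% in that order.

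Several motifs without a CpG were a little more frequent in members than in all called peaks, and most with a CpG less frequent. Matches were counted on both strands of the central 250 bases, and matches of different motifs may overlap. The AP-1 site (TGANTCA) was found in 7.36% of members and 5.46% of all called peaks, the GATA site (AGATAAG) in 2.52% and 1.63%, the nuclear receptor half-site (AGGTCA) in 18.5% and 14.6%, the interferon response core (AAACNGAAA) in 2.77% and 1.71%, the E-box (CACGTG) in 5.75% and 4.82%, the forkhead site (TGTTTAC) in 4.22% and 3.94% and the telomere repeat (TTAGGGTTA) in 0.199% and 0.114%. Peaks called in DMSO only had the AP-1 site in 6.88% and the forkhead site in 4.11%, close to the shares of members. In the same peaks the GATA site was in 1.93%, the half-site in 14.6%, the interferon response core in 1.01%, the E-box in 4.28% and the telomere repeat in 0.168%. The E-box was the exception among motifs with a CpG. The motif bound by the ARID domain of KDM5A (CCGCCC) was found in 14.8% of members, 33.4% of all called peaks and 46.3% of those called in all 4 libraries, the ETS site (CCGGAAG) in 2.43% and 4.53% of the first 2 sets, the NRF1 site (GCGCANGCG) in 0.671% and 2.62%, the CTCF core (AGGGGGCGC) in 0.435% and 1.42% and the CRE (TGACGTCA) in 0.272% and 0.472%. Among members beside a DMSO-called peak the CCGCCC share was 24.0%, and among those away from one 11.5%. A match describes the letters and not a bound site.

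The merged table also names other libraries, which were not analysed here. Of the members, 2842 (51.4%) were named by none of them, as were 60.6% of those away from a DMSO-called peak and 25.3% of those beside one, against 9.63% of peaks called in all 4 libraries, 36.9% of those called in both C48 libraries and 1 DMSO library and 62.7% of those called in 1 C48 library only.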

How the data were processed

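H3K4me3 CUT&Tag libraries were aligned by the authors to hg38 with Bowtie2 2.3.4.1, and HOMER is also named in their processing notes, without a version. Per the file headers, the deposited table lists merged peaks, the libraries in which each was called, and for every library a signal in tags per 10 M aligned tags. The study scaled its libraries by fly spike-in tags, and that scaling was not used here. The paper reports fewer fly reads in C48 samples, and states that H3K4me3 peaks of C48 samples would be undercounted without this scaling. Peaks given here as lower in C48 with TMM may therefore not be lower on the study's scaling. The deposited peak score was not used, nor was the repeat count table. The columns of treated libraries carry the tag GNE, as their sample descriptions do. All values (100%) were whole multiples of 1 tag (tolerance 0.1 tags), which gave the depths. Libraries were scaled by TMM (edgeR 4.0.16), which cannot show a genome-wide shift. Peaks called in at least 1 library with a mean of at least 5 were tested with limma-trend 3.58.1 (R 4.3.3) on log2(value + 1), with Benjamini-Hochberg adjustment at 0.05. The procedure was tested on simulated data. Counting error at 58.4 to 88.4 M tags leaves weak members imprecise, and 2 libraries per group limit every comparison.

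Members were found by the calls listed in the table, and annotation, distance, nearest gene and repeat are those of its HOMER columns. Sequence came from hg38, the build of the table, with exons from GENCODE. The members, gene lists, motifs and tests were chosen with earlier results of these data known. Named regions are, in each of promoter, intron and intergenic members with a mean of at least 10, the 4 with the largest log2 difference and the 2 with the highest C48 mean; the 6 genes with most members (with ties); up to 2 genes per list with the highest C48 mean; and a fixed set (CGAS, STING1, ISG15, IFIT1, OAS2, IFI44, IFI44L, CXCL10, B2M, HLA-B, KDM5A, KDM5B, KDM5C), and a few items that the rule names are not reported here. Alternatives covered scaling, pseudocount, filter, left-out libraries, the replicate block, edgeR's quasi-likelihood test (24111 peaks called) and DESeq2 1.42.0 on recovered tags, and the limits of each definition.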

Additional observations from a re-analysis of the deposited data

How the results depend on the processing

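The total of limma calls (24159) stayed within 1.5 times of this value under all 16 alternatives, but its split into higher and lower did not: 10925 higher and 13234 lower with TMM, 18192 and 7917 on the deposited values, 19567 and 6974 on the column total, 9109 and 14717 with DESeq2 factors, 27929 and 1530 when scaled by ribosomal protein promoters, and 5756 and 12328 if the mean had to be at least 20. Members called higher numbered 1783 of the 2411 tested, 3007 on ribosomal protein promoters, 4022 with no filter (all 5533 tested), 586 with a mean of at least 20, and from 1068 to 2286 when 1 library was left out (1068 without C48 replicate 1, 1132 without C48 replicate 2). Over all tested members, the median log2 difference was 1.03 with TMM. It became 1.41 with the deposited values, 1.47 with column totals and 1.82 when ribosomal protein promoters set the scale. With TMM it was 0.71 at a pseudocount of 5, 0.32 at a mean of at least 20 and 0.79 to 1.08 with 1 library left out. This median was above 0 in every setting. The rule used the same contrast and favours such a sign, so the sign is not read as a result. Medians over all tested peaks moved with the scaling too. They were −0.02 with TMM, −0.15 with DESeq2 factors, 0.38 with the deposited values, 0.44 with column totals and 0.84 by ribosomal protein promoters.

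The replicate numbers share only a number: the correlation of replicate differences between groups was −0.03, over 2 pairs. With the replicate block 24060 peaks and 1771 members were called and the median was 1.03. Testing all merged peaks with a mean of at least 5, an alternative chosen after seeing the data, gave 30461 calls.

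The rule gave 5533 members, from 6857 to 9169 when 1 library was left out (9169 without C48 replicate 1, 8949 without C48 replicate 2), and 2618 when both C48 values had to be at least 2 times the higher DMSO value. With both C48 values of at least 20, 1119 members were 21.5% promoter-TSS, 58.2% intron, 10.2% intergenic and 4.38% over 50 kb from a TSS. Away from DMSO-called peaks these shares were 2.72%, 33.9%, 58.1% and 53.7%. Fewer libraries were used in each left-out setting; other causes were not tested.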
